A study of Mus musculus with 2 samples.

Results

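The mir-106a-363 and mir-106b-25 clusters are 2 groups of microRNA hairpins, each cut from a common transcript, and are paralogues of the better known mir-17-92 cluster. They were examined here in mouse heart at embryonic day 12.5. The members were taken by gene symbol, by a rule that uses no measured value, and number 9 of the 1973 genes in the count tables. The mir-106a-363 cluster holds 6 of them, Mir106a, Mir18b, Mir20b, Mir19b-2, Mir92-2 and Mir363. The mir-106b-25 cluster holds Mir106b, Mir93 and Mir25. Both libraries came from heart tissue of B6NCrl mice, a C57BL/6 strain, with male and female embryos pooled and a size range given as under 30. Replicate 1 is labelled healthy, and replicate 2 carries no label of health. They form 1 group of 2 biological replicates with no treatment and no second genotype, so the members can be compared with each other within a library but not between conditions.

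A microRNA is cut from a hairpin and guides the Argonaute protein to messenger RNAs that pair with its seed, here bases 2 to 8, which lowers their translation and stability. The 3 paralogous clusters are thought to derive from an ancestral cluster by duplication, and their products fall into 4 seed groups named after miR-17, miR-18, miR-19 and miR-92. In mice, deletion of mir-17-92 causes heart and lung defects and death at birth, whereas deletion of mir-106a-363 or of mir-106b-25 alone was reported to be tolerated, and combined loss of mir-17-92 and mir-106b-25 is lethal before birth with heart defects. Mcm7, the host gene of mir-106b-25, encodes a subunit of the helicase that opens DNA for replication.

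The seeds and the few bases that separate the paralogues are shown first, because they bear on which reads can be told apart. The mature sequences are RefSeq's on GRCm38.p6, 5′ to 3′, with the seed in capitals, and all 9 members were found there. The arms in these first sets are the usual guide arms. The miR-17 seed group contains 2 products of each of the 3 clusters.

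miR-106a-5p: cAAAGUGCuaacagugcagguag
miR-20b-5p: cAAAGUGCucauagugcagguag
miR-106b-5p: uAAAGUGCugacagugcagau
miR-93-5p: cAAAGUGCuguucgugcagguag
miR-17-5p: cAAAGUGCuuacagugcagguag
miR-20a-5p: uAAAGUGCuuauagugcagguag

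The miR-18 and miR-19 groups join mir-106a-363 with mir-17-92 and have no member in mir-106b-25. The symbol of the miR-18a gene in the annotation is Mir18.

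miR-18b-5p: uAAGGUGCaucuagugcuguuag
miR-18a-5p: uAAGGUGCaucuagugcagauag
miR-19b-3p: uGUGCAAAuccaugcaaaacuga
miR-19a-3p: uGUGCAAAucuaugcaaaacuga

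The miR-92 group again spans all 3 clusters.

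miR-92a-3p: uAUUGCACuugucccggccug
miR-363-3p: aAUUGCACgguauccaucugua
miR-25-3p: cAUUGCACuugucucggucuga

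Counted from 1 at the 5′ end, miR-106a-5p differed from miR-17-5p at 1 position, A10U. The product of Mir18b differed from miR-18a-5p at U18A and U20A, and that of Mir20b from miR-20a-5p at C1U and C10U. Compared base by base without gaps, each product of mir-106b-25 had at least 3 differences from any other mature microRNA in the table. The most distinct was miR-363-3p, whose nearest neighbour, miR-367-3p, differed at 8 positions. Some products have no sequence of their own. miR-19b-3p is made by both Mir19b-2 and Mir19b-1, and miR-92a-3p by both Mir92-2 and Mir92-1. Their hairpins are given with the longest stretch shared by each pair in capitals.

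Mir19b-2: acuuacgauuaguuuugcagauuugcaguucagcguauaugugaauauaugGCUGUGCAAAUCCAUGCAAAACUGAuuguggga
Mir19b-1: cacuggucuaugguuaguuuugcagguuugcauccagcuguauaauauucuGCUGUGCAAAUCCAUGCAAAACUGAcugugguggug
Mir92-2: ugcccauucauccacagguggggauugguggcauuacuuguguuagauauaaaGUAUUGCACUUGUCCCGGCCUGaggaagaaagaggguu
Mir92-1: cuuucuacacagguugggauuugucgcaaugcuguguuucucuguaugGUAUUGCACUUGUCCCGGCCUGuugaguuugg

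The shared stretch was 25 bases long in the miR-19b pair and 22 bases in the miR-92a pair, and in each it contained the whole guide arm, of 23 and 21 bases. A read of the exact guide arm therefore fits both hairpins of a pair. Reads that fit several places stand in a row of their own and in no gene's count. Mir19b-2 and Mir92-2 can thus gain counts only through reads that run past their shared stretch or lie outside it, as in the other arm. Among the other 7 members the longest stretch shared with any other microRNA hairpin was between 12 and 17 bases. Copies of the members elsewhere in the genome were not searched for.

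On GRCm38, with GENCODE M21, the mir-106a-363 hairpins lie within 875 bases of the minus strand at chrX:52741693-52742567. The first hairpin, Mir106a (ENSMUSG00000065456.1), overlaps the last exon of the noncoding transcript gene Kis2 by 5 bases, and the other 5 lie outside annotated genes. The mir-106b-25 hairpins lie within 498 bases of the minus strand at chr5:138165321-138165818. Mir106b (ENSMUSG00000065514.1), Mir93 (ENSMUSG00000065527.1) and Mir25 (ENSMUSG00000065394.1) all lie in intron 13 of an Mcm7 coding transcript. Mir93 and Mir25 also lie in exon 1 of a shorter Mcm7 transcript.

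The libraries held 9235580 and 10601121 reads in replicates 1 and 2, of which 4478599 and 5279908 were counted on the strand of a microRNA gene. Levels are in CPM, the sense counts scaled to a library total of 1000000, and a mean ± SD is over both libraries (n = 2). With no count, a gene could still stand at up to 0.670 CPM in replicate 1 or 0.568 CPM in replicate 2 (3 counts), and intervals and limits cover counting error only. The labels call the libraries biological replicates and give both the same donor identifier, but do not say which embryos each came from. Their counts differed by more than sampling noise, with a chi-square of 54.6 per degree of freedom over 444 genes. Of the heart muscle markers, Mir208b stood at 51846 and 49990 CPM, Mir208a at 9998 and 9772 CPM and Mir499 at 2114 and 2162 CPM, while Mir1a-1 and Mir133a-1 had no more than 25 counts. Counts leave out reads that fit several places, and how many of those came from Mir1a-1 or Mir133a-1 was not tested. Every listed marker of other cell types had counts in both libraries except Mir142, which was not used here. Mir143, of smooth muscle and mesenchyme, stood at 87662 and 89222 CPM, and the endothelial Mir126a at 67024 and 68770 CPM. Both were above Mir208b in each library. The epithelial markers summed to 735 and 727 CPM. The red blood cell markers summed to 926 and 1811 CPM, with Mir451a at 770 and 1671 CPM and Mir144 at 156 and 140 CPM. The liver microRNA Mir122 stood at 181 and 32.4 CPM. The part of such cells in the members' counts was not tested. In whole tissue, fewer cells that make a microRNA and less of it per cell cannot be told apart.

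The 9 members together took 1.25% ± 0.0593 (SD, n = 2) of the sense counts, and nearly all of that came from mir-106b-25. The mir-106a-363 cluster summed to 269.7 and 263.6 CPM in replicates 1 and 2 (267 ± 4.30 CPM), against 11831 and 12676 CPM (12254 ± 597 CPM) for mir-106b-25. The log2 ratio of mir-106a-363 over mir-106b-25 was −5.52 ± 0.0936 (SD, n = 2), so the X-linked cluster had 2.28% and 2.08% of the counts of the Mcm7 cluster. Per base of hairpin the log2 ratio was −5.32 ± 0.0849. The gap in counts was thus many times the spread between libraries. The mir-106a-363 sum lacks the guide reads that Mir19b-2 and Mir92-2 share with mir-17-92 hairpins. No mir-106b-25 hairpin shares its guide arm with another microRNA hairpin. The part of such reads in the gap was not tested. No test was made, because 2 libraries of 1 group cannot reach a p of 0.05 in an exact permutation test. Reads on the strand opposite to a member numbered 0 at all 9 genes.

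**Figure D1:**
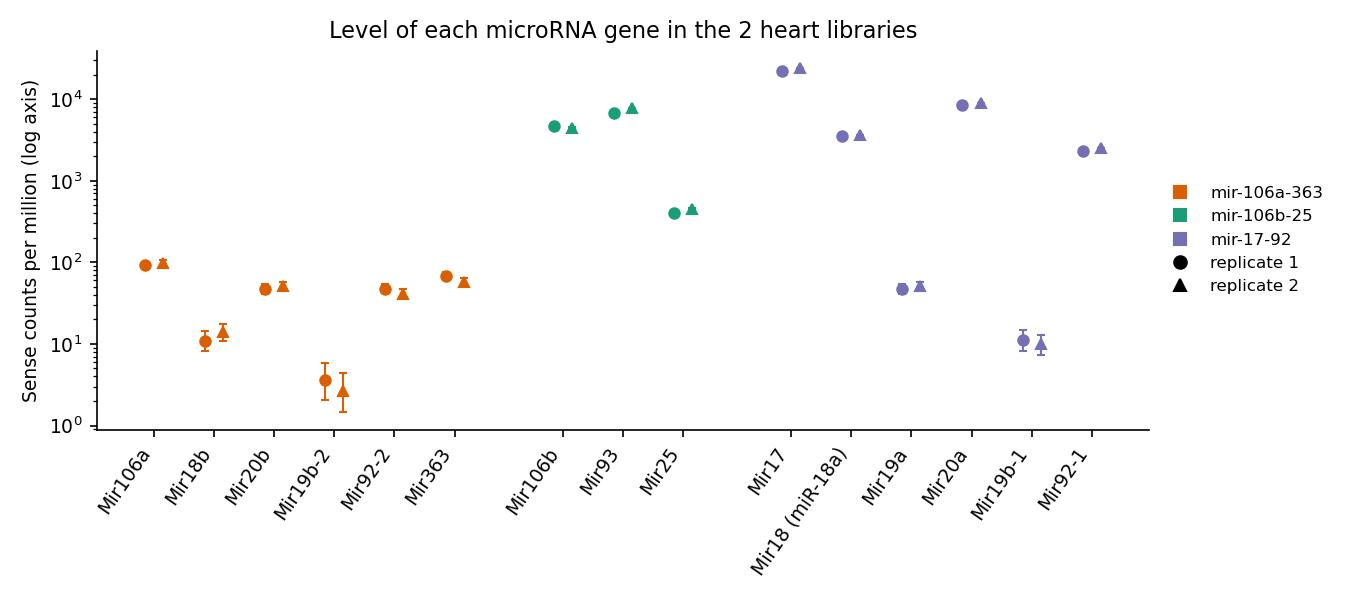
Level of each member and of the 6 mir-17-92 genes, in CPM on a log axis. Circles are replicate 1, triangles replicate 2, and bars the exact 95% Poisson interval of each count. The mir-106a-363 genes sit between 2.65 and 97.0 CPM, below all 3 mir-106b-25 genes, which sit between 406 and 7756 CPM.

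In the mir-106a-363 cluster every gene had fewer counts than Mir25, the lowest of the other cluster, in both libraries. The counts of Mir92-2 and Mir19b-2 lack their shared guide reads. Mir106a, the first hairpin and a carrier of the miR-17 seed, which is known for repressing cell cycle inhibitors such as Cdkn1a, was highest. It had 413 and 512 counts in replicates 1 and 2, or 92.2 and 97.0 CPM, and ranked 183 and 182 among the 712 genes with a count. Mir363, the last hairpin, with the miR-92 seed, followed with 303 counts in each library, or 67.7 and 57.4 CPM. The libraries did not overlap between these genes, although the ratio of Mir106a to Mir363 varied between 1.36 and 1.69.

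Mir20b, which also carries the miR-17 seed, had 213 and 271 counts, or 47.6 and 51.3 CPM. Mir92-2 had 214 and 219 counts, or 47.8 and 41.5 CPM. Mir20b and Mir92-2 could not be put in order, since Mir92-2 was marginally higher in replicate 1 and lower in replicate 2. Their ratio, Mir92-2 over Mir20b, was 0.906 ± 0.139 (SD, n = 2).

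The lowest genes were Mir18b and Mir19b-2. Mir18b, whose seed differs from that of miR-17 by a single inner base, had 49 and 73 counts, or 10.9 and 13.8 CPM (exact 95% Poisson intervals 8.09 to 14.5 and 10.8 to 17.4 CPM). Mir19b-2, the fourth hairpin and a carrier of the miR-19 seed, had 16 and 14 counts, or 3.57 and 2.65 CPM (intervals 2.04 to 5.80 and 1.45 to 4.45 CPM). Both exceeded in each library the level that no count would allow. The intervals of Mir18b and Mir19b-2 did not overlap within either library. Mir106a exceeded Mir19b-2 by a ratio of 25.8 and 36.6, and the whole cluster spanned a 30.4-fold range of mean levels. Guide reads of Mir19b-2 that lie within the shared stretch are not in its count, so this range is not the range of the mature products.

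The mir-106b-25 cluster was carried by its first 2 hairpins. Mir93 had 30187 and 40949 counts, or 6740 and 7756 CPM, and ranked 25 and 24 of all genes with a count. Mir106b had 20983 and 23596 counts, or 4685 and 4469 CPM, and ranked 33 in both libraries. Both carry the miR-17 seed, and Mir93 was the higher in each library, by a ratio of 1.44 in replicate 1 (exact 95% binomial interval 1.41 to 1.46) and 1.74 in replicate 2 (1.71 to 1.76). These intervals did not overlap, so the ratio moved between libraries by more than counting error.

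Mir25, the third hairpin, carries the miR-92 seed and is known in mouse heart as a repressor of the calcium pump gene Atp2a2. It had 1818 and 2382 counts, or 406 and 451 CPM, and ranked 109 and 104. Mir93 exceeded it by a ratio of 16.9 ± 0.415 (SD, n = 2) and Mir106b by 10.7 ± 1.16 (SD, n = 2). Mir25 therefore took 3.50% ± 0.0906 (SD, n = 2) of its cluster's counts, against 59.1% ± 2.98 for Mir93 and 37.4% ± 3.07 for Mir106b. The order of the 9 members by mean CPM was the same per base of hairpin, where Mir93 had 82.4 and Mir19b-2 had 0.0370 CPM per base.

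**Figure D2:**
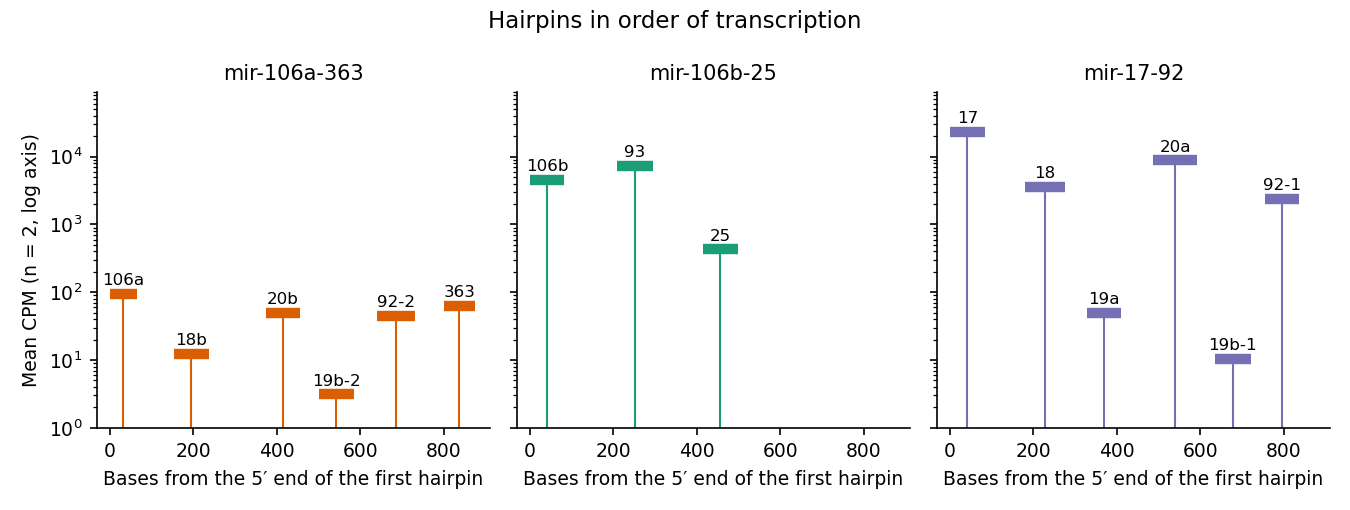
Mean CPM of both libraries (log axis) at each hairpin, placed by its distance in bases from the 5′ end of the first hairpin of its cluster. Horizontal marks are as wide as the annotated hairpins. In mir-106a-363 and in mir-17-92 the level falls and rises along the transcript, with the miR-19b hairpin lowest in each, while mir-106b-25 ends with its lowest hairpin, Mir25.

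Along the transcripts the levels did not follow the order of the hairpins. In mir-106a-363 the first and the last hairpin were the highest, at 94.6 ± 3.36 and 62.5 ± 7.26 CPM, and the fourth, Mir19b-2, was the lowest at 3.11 ± 0.651 CPM. The mir-17-92 cluster also had its miR-19b hairpin lowest, Mir19b-1 with 50 and 52 counts (10.5 ± 0.930 CPM). Next above it came Mir19a, with 211 and 269 counts (49.0 ± 2.71 CPM). Its miR-19a-3p is identical to no other listed mature microRNA and lies 1 base away from miR-19b-3p. The hairpins thus stood low for the miR-19 seed in both clusters that have it. Of these 3 hairpins, Mir19b-2 and Mir19b-1 have a guide arm that fits more than 1 hairpin and Mir19a does not. The part of such reads in the low counts was not tested.

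Set against mir-17-92, the 2 clusters stood far apart. All 9 members summed to 32.8% and 33.0% of the counts of the 6 mir-17-92 genes, a log2 ratio of −1.60 ± 0.00801 (SD, n = 2). The mir-106a-363 cluster alone had 0.731% and 0.673% of them, and mir-106b-25 had 32.0% and 32.4%. In each library mir-17-92 thus held more counts than either paralogue. The sums of mir-106a-363 and of mir-17-92 lack the guide reads that their miR-19b and miR-92a hairpins share.

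**Figure D3:**
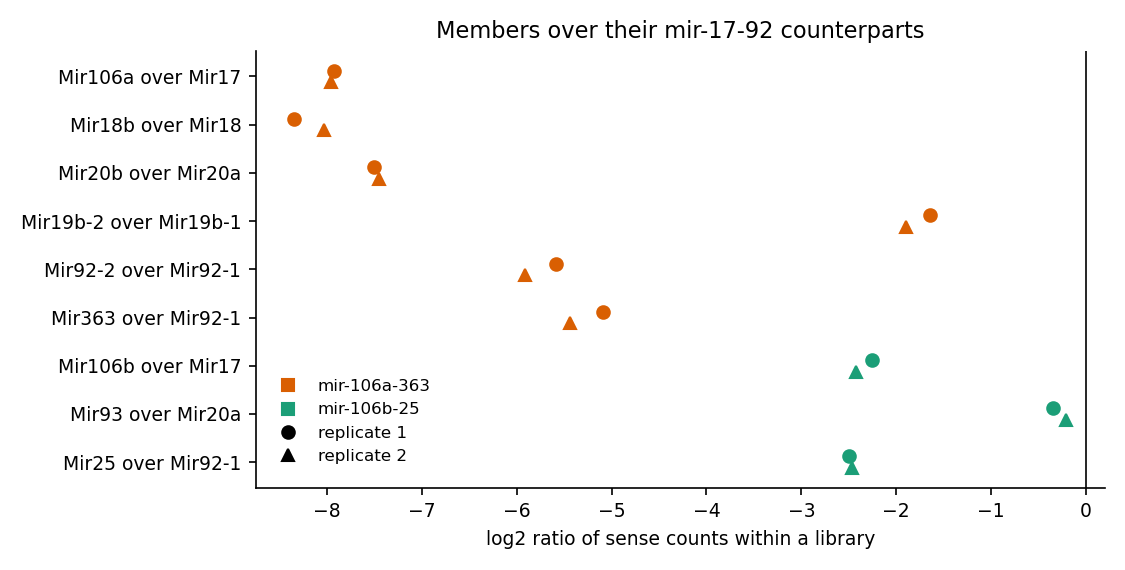
log2 ratio of sense counts within a library for each member over a mir-17-92 gene of the same seed, with circles for replicate 1 and triangles for replicate 2. The 6 mir-106a-363 ratios lie between −8.34 and −1.64, and the 3 mir-106b-25 ratios between −2.50 and −0.21. The vertical line marks equal counts.

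Gene by gene, the counts of the mir-106a-363 hairpins fell into distinct ranges relative to those of their mir-17-92 counterparts. Mir106a had 0.411% and 0.403% of the counts of Mir17 (exact 95% binomial intervals 0.373 to 0.453% and 0.369 to 0.440%). Mir18b had 0.309% and 0.383% of those of Mir18. Mir20b had 0.552% and 0.572% of those of Mir20a. All 3 ratios lay under 0.6%, and those are the pairs whose guide arms differ by 1 or 2 bases. Mir17 itself had 100366 and 126906 counts, so 413 and 512 counts are few beside it. How the alignment treated reads with a mismatch is not given in the sources used here, and the part of misread Mir17, Mir18 or Mir20a molecules in the counts of Mir106a, Mir18b and Mir20b was not tested.

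As counted, the last members stood higher relative to their counterparts. Mir92-2 had 2.08% and 1.66% of the counts of Mir92-1, and Mir363 had 2.95% and 2.30% of them. The count of Mir92-1, like that of Mir92-2, leaves out guide reads within their shared stretch. The guide arms of Mir363 and Mir25 match no other microRNA hairpin, although copies elsewhere in the genome were not searched for. Ratios of Mir363 and Mir25 over Mir92-1 thus set unlike counts side by side. The guide arm of Mir363, at least 8 bases away from any other microRNA, is the member sequence least like a mir-17-92 product. Mir19b-2 had 32.0% and 26.9% of the counts of Mir19b-1 (exact 95% binomial intervals 17.0 to 57.1% and 13.8 to 49.3%), both without the reads that fit the other. As counted, that share lay above those of the other 5 mir-106a-363 genes in both libraries. It rests on counts without the shared guide reads, as does the share of Mir92-2. The guide arms of Mir106a, Mir18b and Mir20b are identical to no other listed mature microRNA. These shares are therefore unlike measures, and their order is not an order of the mature products.

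The mir-106b-25 genes came closer to mir-17-92. Mir106b had 20.9% and 18.6% of the counts of Mir17, and Mir25 had 17.7% and 18.1% of those of Mir92-1. Mir93 had 78.3% and 86.4% of the counts of Mir20a (exact binomial intervals 77.1 to 79.5% and 85.3 to 87.6%). Mir20a was thus higher in both libraries by more than counting error. Per base of hairpin the log2 ratio of Mir93 over Mir20a was 0.000114 ± 0.101 (SD, n = 2). That value rests on annotated hairpin lengths of 88 bases for Mir93 and 107 for Mir20a, while both guide arms have 23 bases. It therefore does not show equal levels of the products. The mean level of Mir93 was 7248 ± 718 CPM, against 8792 ± 255 CPM for Mir20a.

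The members' share of the counts was next taken within each of the 4 seed groups. A gene's count covers both arms of its hairpin, so these shares are of hairpin counts and not of guide arms. Of the 7 genes whose mature product has the miR-17 seed, the 4 members took 27.2% and 27.3% of the counts in replicates 1 and 2. Mir106a and Mir20b made up 0.328% and 0.327%, and Mir106b and Mir93 26.8% and 26.9%. The rest fell to Mir17 and Mir20a, and Mir6383, which shares the seed, had 0 counts in both libraries. Between the clusters, the log2 ratio of Mir106a plus Mir20b over Mir106b plus Mir93 was −6.36 ± 0.00860 (SD, n = 2), or −6.06 per base of hairpin.

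**Figure D4:**
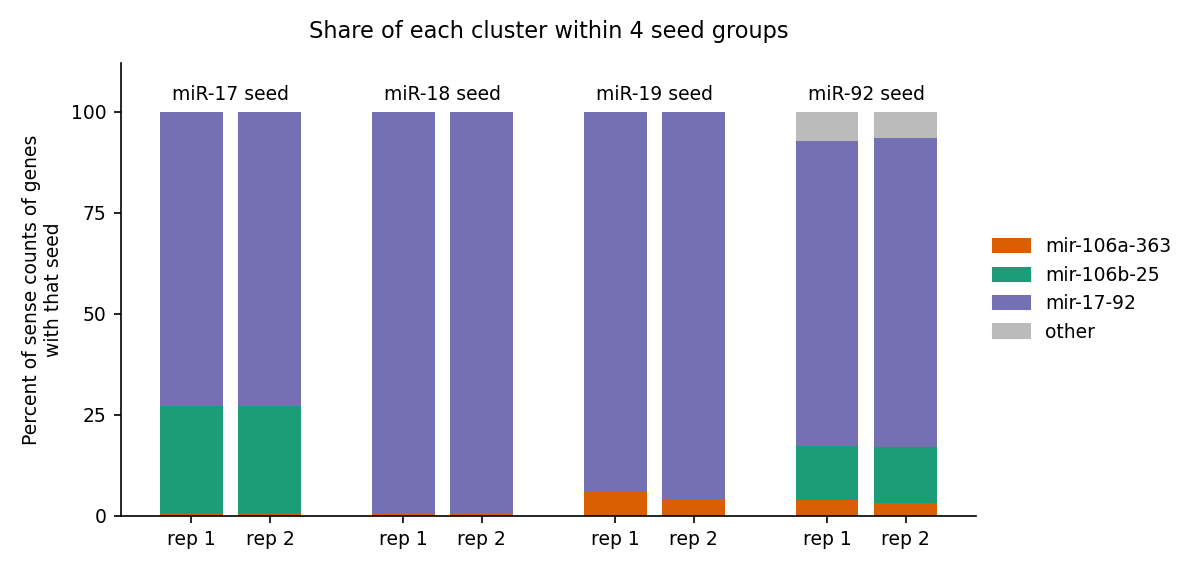
Percent of the sense counts of all genes with a given seed that fell to each cluster, in replicates 1 and 2 (rep 1 and rep 2). The mir-106a-363 cluster is hardly visible except in the miR-19 and miR-92 groups, and mir-106b-25 holds 26.8% and 26.9% of the miR-17 seed counts and 13.4% and 13.9% of the miR-92 seed counts.

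Both clusters contributed to the miR-92 seed group, whose total lacks the guide reads that Mir92-2 and Mir92-1 share. Its 7 genes summed to 3034 and 3256 CPM, of which Mir363 with Mir92-2 held 3.81% and 3.04% and Mir25 held 13.4% and 13.9%. The log2 ratio of Mir92-2 plus Mir363 over Mir25 was −2.002 ± 0.266 (SD, n = 2), a far smaller gap than in the miR-17 group. Mir363 alone had 16.7% and 12.7% of the counts of Mir25, a log2 ratio of −2.78 ± 0.276. Outside the 3 clusters, Mir32, with 121 and 118 CPM, and Mir92b, with 93.1 and 93.8 CPM, stood between Mir25 and Mir363 in both libraries. Mir367, a microRNA of pluripotent cells, had 9 and 10 counts.

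The seeds of miR-18 and miR-19 had members only in mir-106a-363. Mir18b took 0.308% and 0.382% of the counts of its seed group (exact 95% binomial intervals 0.228 to 0.407% and 0.299 to 0.480%), with the rest from Mir18. Mir19b-2 took 5.78% and 4.18% of the miR-19 group (intervals 3.34 to 9.21% and 2.30 to 6.91%). The total of the miR-19 group lacks the guide reads that Mir19b-2 and Mir19b-1 share. As counted it was 277 and 335, fewer than Mir106a alone.

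By the median, the members differed between the 2 libraries about as much as all genes with at least 10 counts in total. None of the 9 lay past 1.5-fold between libraries, while 67 of 444 genes with at least 10 counts in total did, or 15.1%. The counting intervals of Mir18b (0.868 to 1.85) and Mir19b-2 (0.335 to 1.62) reached past 1.5-fold. Of the 287 genes that averaged 10 CPM or more, 13 did, or 4.53%, and 8 of the 9 members belong to these genes. The median absolute log2 ratio was 0.20 for the members and 0.20 for all 444 genes. The 444 genes include those that averaged under 10 CPM, and no median was taken for the 287 genes alone. The mir-17-92 genes had log2 ratios between −0.181 (Mir19b-1) and 0.118 (Mir92-1).

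**Figure D5:**
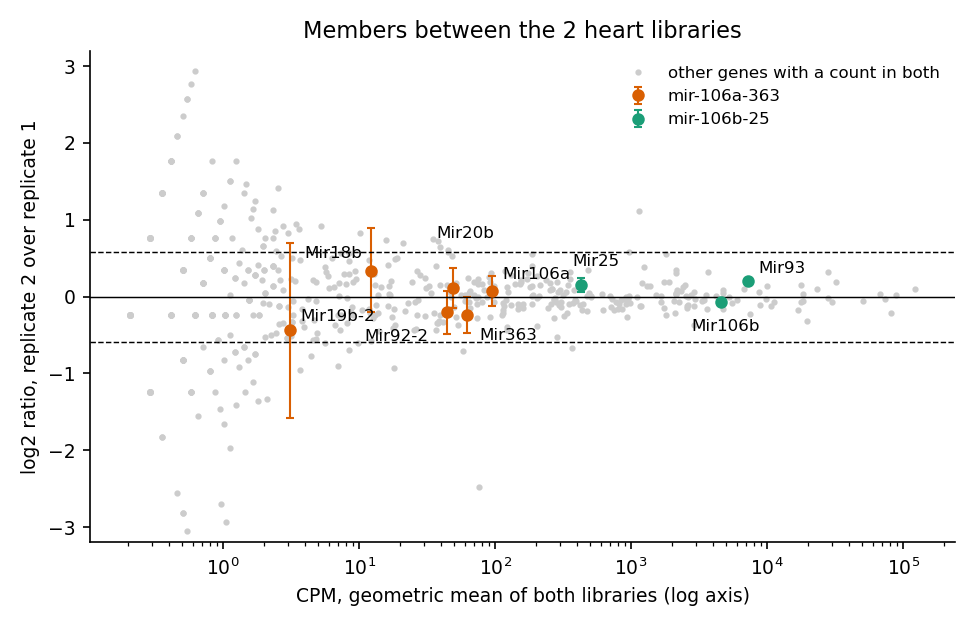
log2 ratio of replicate 2 over replicate 1 against CPM (log axis) for the 9 members, with exact 95% binomial counting intervals, and for all other genes with a count in both libraries (grey). Dashed lines mark 1.5-fold. All members lie between the lines, from −0.43 for Mir19b-2 to 0.34 for Mir18b.

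Between libraries the mir-106a-363 genes showed ratios of replicate 2 over replicate 1 on both sides of 1, mostly within counting error. Mir106a, Mir18b and Mir20b were higher in replicate 2, with ratios of 1.05, 1.26 and 1.08, and Mir19b-2, Mir92-2 and Mir363 were lower, with ratios of 0.742, 0.868 and 0.848. Of these 6 only Mir363 had a counting interval that left out 1 (0.721 to 0.998). In mir-106b-25 all 3 intervals left out 1. Mir93 and Mir25 were higher in replicate 2, with ratios of 1.15 (1.13 to 1.17) and 1.11 (1.05 to 1.18), and Mir106b was lower, with a ratio of 0.954 (0.936 to 0.972). With 1 library a side these intervals compare 2 libraries and hold counting error alone.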

How the data were processed

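MicroRNA-sized RNA of 2 mouse heart samples was analysed from the authors' deposited raw counts of reads per microRNA gene, 1 table per library, made on mm10 with annotation M4 per the deposited file descriptions. Which aligner and counter were used is not given in the sources used here. The 3 count columns carry no names. From the values, the second was read as sense counts, because it holds nearly all of the first, and because each sums with 4 rows that name no gene to the same total. Those rows stayed out of library sizes. In replicates 1 and 2, multimapping reads were 27.1% and 25.3% of all reads, unmapped reads 18.1% and 19.1%, and sense reads in no gene 6.29% and 5.88%. Identifiers were matched to GENCODE M21 on GRCm38 (mm10), 1894 of 1973 genes, and the miR-18a gene through a RefSeq synonym of Mir18.

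CPM, within-library ratios, exact intervals and seed groups were computed in Python 3.11.15 with scipy 1.17.1. TMM (edgeR 4.0.16), DESeq2 1.42.0 size factors, other columns, denominators, filters and left-out replicates were alternatives. No test across conditions was possible. The 1.5-fold rule was tested on counts simulated with sampling noise alone, which does not cover the wider spread between these libraries. Named genes were the 9 members, mir-17-92 and genes sharing a guide seed. Members and lists were chosen with earlier results of these data known.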

Additional observations from a re-analysis of the deposited data

Results flagged for a closer look

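Reads that fit several places made up 27.11% of all reads in replicate 1 and 25.25% in replicate 2, and they stand here as a signal in data outside the gene counts. The files do not say which microRNAs they came from. Of the members, Mir19b-2 and Mir92-2 have a guide arm that fits a second hairpin exactly, and what share of these reads was miR-19b-3p or miR-92a-3p was not tested. With 2 libraries no check for a single outlying sample was possible.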

How the results depend on the processing

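Of 54 alternative values for 11 main results, 40 lay within 1 SD of the value reported or, for the number of genes past 1.5-fold, within 1.5 times of it, 14 moved further and 0 changed sign. Counts without regard to strand gave 255 CPM for mir-106a-363, and all reads as denominator gave 131 reads in 1000000 for mir-106a-363 and 6025 for mir-106b-25, by construction of the larger totals. Per base of hairpin, the log2 ratio was −5.32 for mir-106a-363 over mir-106b-25, −6.06 in the miR-17 seed group and −1.54 for both clusters over mir-17-92. A pseudocount of 1 CPM gave −6.35 in the miR-17 seed group. Without hairpins that share an identical mature product, the log2 ratio was −5.81 between the clusters, −2.78 in the miR-92 seed group and −1.515 against mir-17-92. The members' share of the miR-92 seed counts was then 69.5%, because Mir92-1 leaves the total, and it stood above their share of the miR-17 seed counts (27.2%), whereas with all hairpins it was 17.0% and stood below. For the miR-19 seed no member is left, so no value was given. Genes past 1.5-fold between libraries numbered 148 with at least 1 count in each library, 13 at a mean of at least 10 CPM and 25 past 2-fold. Leaving out either replicate moved no level, ratio or share among the main results by more than 1 SD, which with 2 libraries follows from the size of the SD. Of 36 alternative values for single members, 34 lay within 1 SD. Depth limits Mir19b-2, with 16 and 14 counts, and Mir18b, with 49 and 73.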

Other observations

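The other arms of the hairpins also fall into groups. RefSeq lists miR-106a-3p, miR-20b-3p and miR-17-3p with the same bases 2 to 8, so Mir106a, Mir20b and Mir17 share a seed on both arms, while miR-106b-3p and miR-93-3p have seeds of their own. The counts are per hairpin and do not separate the arms. The 5p arms of Mir19b-2 and Mir19b-1 share their bases 2 to 8 as well but differ further on, and those of Mir92-2 and Mir92-1 differ within the seed.

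miR-19b-2-5p: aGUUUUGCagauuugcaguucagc
miR-19b-1-5p: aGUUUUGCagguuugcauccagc
miR-92a-2-5p: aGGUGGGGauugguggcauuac
miR-92a-1-5p: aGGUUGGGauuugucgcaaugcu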
